A study of Homo sapiens with 4 samples.

Results

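A set of 50 genes was silent or weakly expressed in H1792 lung cancer cells given DMSO and rose at least 5-fold after ACBI1. Membership was read from the counts: a gene had to reach at least 1 CPM (a count scaled by the library's total gene counts, times 1000000) in both ACBI1 libraries, and its lower ACBI1 value had to be at least 5 times its higher DMSO value. Of 61228 features in the count tables, 13204 reached 1 CPM in both ACBI1 libraries and 56 also passed the 5-fold condition. The 6 left out by name were 2 further genes and 4 with symbols of intergenic or antisense noncoding RNAs, which leaves the 50 described here. Because the rule uses the contrast between ACBI1 and DMSO, the height of the members' response is a description and carries no test.

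H1792 is a human lung adenocarcinoma line, labelled here with the genotype WT, and the 4 RNA-seq libraries came from cells kept for 96 h in DMSO (replicates 1 and 2) or in ACBI1 (replicates 1 and 2). The dose of ACBI1 is written as 1 mM in the labels; whether micromolar was meant could not be checked from the files, so the dose is uncertain. ACBI1 is a bifunctional degrader that links the bromodomains of SMARCA2, SMARCA4 and PBRM1 to the ubiquitin ligase VHL, so that the bound protein is destroyed while its messenger RNA is not the direct target. Nothing in the labels says that the replicates are separate cultures, so the spread between them may be technical, and a single line gives no measure of how other lines respond.

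SMARCA2 and SMARCA4 are the alternative motors of the SWI/SNF chromatin remodelling complexes, which slide and eject nucleosomes at enhancers and promoters, and PBRM1 belongs to a variant of these complexes. They are best known for keeping genes accessible, and they also oppose Polycomb repression. Genes restricted to a tissue, such as those of synapses or of meiosis, are kept off in other cells by several layers, among them Polycomb marks, DNA methylation and repressors such as REST.

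The libraries held 64281850 to 86010100 counts in genes, and 26491 to 27778 genes had a count. SMARCA4 transcript was at 272 and 212 CPM in DMSO and at 431 and 406 CPM in ACBI1, and SMARCA2 and PBRM1 were detected in all 4 libraries; the proteins were not measured. Of the epithelial markers, KRT7 was at 649 and 668 CPM in DMSO and 186 and 61.5 CPM in ACBI1. KRT8 was at 149 and 188 against 71.9 and 62.2 CPM, and KRT18 at 134 and 152 against 61.1 and 76.6 CPM. KRT19 was weak, at 3.29 and 4.92 CPM in DMSO and no more than 1.00 CPM in ACBI1. EPCAM overlapped between the groups, at 5.15 and 2.73 CPM in DMSO and 16.2 and 4.93 CPM in ACBI1. CDH1 was at no more than 0.218 CPM in any library. Of the lung lineage markers, NKX2-1, SFTPA1 and SCGB1A1 had no count in any library, and the 6 markers summed to 0.116 to 0.328 CPM. The 5 blood markers summed to 0.151 to 0.710 CPM and the 5 germ cell markers to 0.0706 to 0.221 CPM. The 5 neuron markers summed to 180 and 111 CPM in DMSO and to 94.8 and 78.3 CPM in ACBI1, nearly all of it SYT1, with STMN2 at 0 and RBFOX3 at no more than 0.0470 CPM. Endothelial markers summed to 12.2 and 48.1 CPM in DMSO and to 0.128 and 0.109 CPM in ACBI1. Nearly all of the DMSO sums was PECAM1, at 11.7 and 47.3 CPM. Fibroblast markers summed to 944 and 1891 CPM in DMSO against 90.5 and 274 CPM in ACBI1. What part the endothelial and fibroblast genes' movement has in the members' change was not tested.

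Summed over the members, the level was 37.4 and 38.6 CPM after DMSO and 414 and 374 CPM after ACBI1. Their mean level in DMSO ran from 0.0303 to 4.82 CPM with a median of 0.295 CPM, and in ACBI1 from 1.15 to 41.4 CPM with a median of 3.77 CPM. Most members thus stayed weakly expressed after treatment: 22 were under 3 CPM, 12 reached 10 CPM and 5 reached 20 CPM. The lowest count of a member in an ACBI1 library was 69, whereas 3 members (ENHO, YBX2 and LHX6) had a DMSO library with 3 counts or fewer. The ratio of the lower ACBI1 to the higher DMSO value ran from 5.05 to 40.7 with a median of 8.20, and 18 members passed 10. Just inside the limit were SLC30A4 at 5.05, MFAP3L at 5.13 and TRIM9 at 5.23, and just outside it DGCR5 at 4.98, FBXL16 at 4.95 and JPH1 at 4.89.

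All 50 passed the filter on low counts and all 50 were called higher at an adjusted p under 0.05 by edgeR's quasi-likelihood test, in a table where 6.75% of the 19159 tested genes were called higher and 10.6% lower. The groups did not overlap for any member, which the rule fixes, and the ACBI1 libraries were both above the DMSO libraries for 36.4% of tested genes. Since the rule used that contrast, nothing is read from these counts. In bulk RNA, expression in a few cells and weak expression in all cells cannot be told apart. The members' log2 changes ran from 2.68 to 6.11 with a median of 3.53, beside a median of 0.01 over all tested genes. The 2 ACBI1 libraries lay within 1.5-fold of each other for 33 members, and 35 members were higher in ACBI1 replicate 1 than in replicate 2. In 4 members the ACBI1 libraries lay more than 2-fold apart (IGF2, SLC30A3, KCNQ5-DT and PHF21B), and in 14 the DMSO libraries did. Leaving out 1 library moved the fitted fold change by more than 1.5 times for 14 members, 12 of them when a DMSO library was left out. On the log2 scale, SYP was then at 6.03 without DMSO replicate 2, ENHO at 7.24 without DMSO replicate 1, YBX2 at 6.15 and SLC30A4 at 3.61 without DMSO replicate 2, and SLC30A3 at 2.87 without ACBI1 replicate 1. KIF17 was at 4.13, CNIH2 at 3.84 and ENSG00000259881 at 5.23 without DMSO replicate 2, and MYB was at 4.43 and RASGEF1C at 4.23 without DMSO replicate 1; the other 4 are given where they are described.

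**Figure D1:**
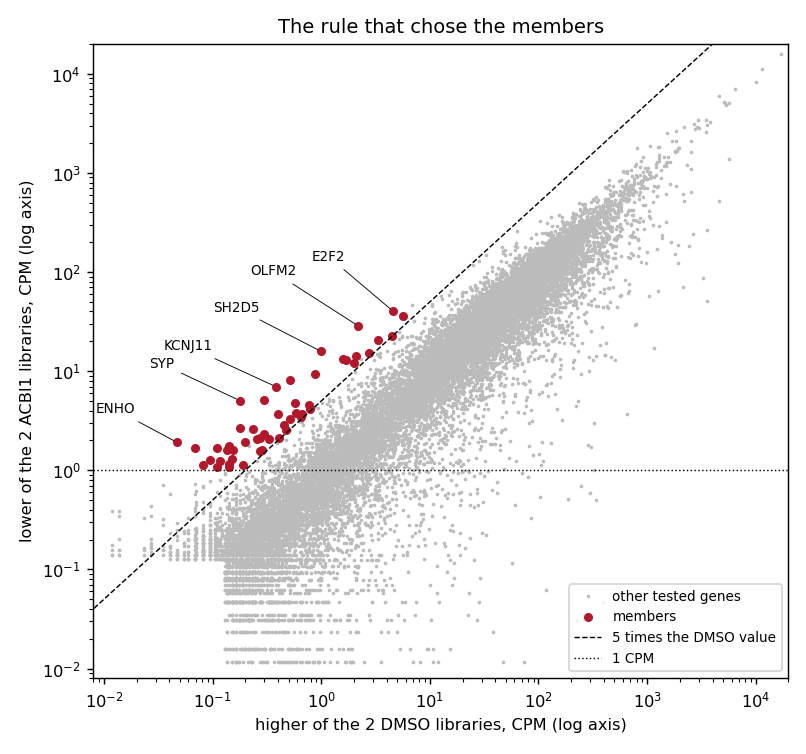
Each point is a gene, with the higher of its 2 DMSO values on the x axis and the lower of its 2 ACBI1 values on the y axis, both in CPM on log axes; red points are the members, grey points the other tested genes with a count in both, the dashed line marks 5 times the DMSO value and the dotted line 1 CPM. The members fill a sparse corner above both lines, from ENHO at the lower left to E2F2 and KCTD12 at the upper right.

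Genes of the synapse and of neurons were 12 of the members (roles were assigned after the members were known). BSN, which encodes the giant scaffold Bassoon of the presynaptic active zone, was at 0.882 and 0.505 CPM in DMSO and at 13.4 and 9.37 CPM in ACBI1, a log2 change of 3.94 (SE 0.41). SYP, which encodes synaptophysin of the synaptic vesicle membrane, was at 0.0706 and 0.178 CPM in DMSO and at 5.12 and 5.06 CPM in ACBI1, a log2 change of 5.28 (SE 0.50). For SYP the ACBI1 libraries were nearly equal, while its DMSO values rested on 6 and 13 counts. OLFM2, a secreted glycoprotein of the olfactomedin family that associates with glutamate receptors, was at 2.03 and 2.20 CPM in DMSO and at 29.8 and 28.6 CPM in ACBI1, a log2 change of 3.70 (SE 0.21). Its libraries were close together within each group, and the smallest standard errors in the set were those of E2F2 and OLFM2.

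The windows of 250 bases before the RefSeq starts (GRCh38.p14) of BSN, OLFM2, SYP and the meiotic gene MEIOC are shown because these genes stand for the neuronal and germline groups and had low levels in DMSO. They lie at chr3:49554227-49554476 (plus strand) for BSN, chr19:9936516-9936765 (minus) for OLFM2, chrX:49200194-49200443 (minus) for SYP and chr17:44656218-44656467 (plus) for MEIOC, each written 5′ to 3′ along its gene's strand. Capitals mark the GC box GGGCGG or its complement CCGCCC, the E-box CACGTG in OLFM2, and GGACAGCGC, the right-hand block of a REST site, in BSN; all words were searched on both strands, and neighbouring GC boxes can overlap.
BSN: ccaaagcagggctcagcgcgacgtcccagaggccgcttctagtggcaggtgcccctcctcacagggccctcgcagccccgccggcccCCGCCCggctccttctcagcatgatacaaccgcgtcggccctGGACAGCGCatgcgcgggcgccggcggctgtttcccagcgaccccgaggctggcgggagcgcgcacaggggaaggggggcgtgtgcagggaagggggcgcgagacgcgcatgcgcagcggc
OLFM2: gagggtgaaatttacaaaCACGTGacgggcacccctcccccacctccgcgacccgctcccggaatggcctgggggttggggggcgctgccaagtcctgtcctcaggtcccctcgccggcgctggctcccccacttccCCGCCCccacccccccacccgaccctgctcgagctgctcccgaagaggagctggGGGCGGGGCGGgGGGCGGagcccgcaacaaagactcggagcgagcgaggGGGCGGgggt
SYP: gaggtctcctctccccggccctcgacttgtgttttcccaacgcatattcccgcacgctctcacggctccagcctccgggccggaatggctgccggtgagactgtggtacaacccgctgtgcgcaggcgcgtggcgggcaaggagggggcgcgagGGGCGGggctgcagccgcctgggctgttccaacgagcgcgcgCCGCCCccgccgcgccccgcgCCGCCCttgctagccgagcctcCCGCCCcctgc
MEIOC: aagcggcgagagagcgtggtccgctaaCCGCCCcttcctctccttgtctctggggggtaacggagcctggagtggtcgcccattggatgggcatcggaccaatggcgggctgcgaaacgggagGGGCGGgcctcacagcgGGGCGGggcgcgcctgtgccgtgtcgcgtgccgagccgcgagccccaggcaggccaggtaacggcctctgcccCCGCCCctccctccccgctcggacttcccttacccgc

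All 4 windows were rich in G and C, at 74.4% for BSN, 73.2% for OLFM2, 74.0% for SYP and 72.0% for MEIOC, against a median of 64.8% over the 12359 tested genes with such a window. They held 30, 22, 31 and 27 CG dinucleotides, in the same order. A GC box, the site of Sp1-type factors, was found 1 time in BSN, 5 times in OLFM2 and 4 times each in SYP and MEIOC, and 65.2% of the windows of tested genes and 42.3% of all 27305 windows hold at least 1. The E-box, bound by factors such as MYC and USF, starts 232 bases before the OLFM2 start, and 8.55% of tested genes' windows hold it. The right REST block starts 121 bases before the BSN start and is rarer, in 0.728% of tested genes' windows. The left REST block, TTCAGCACC, was searched too and was in none of the 4 windows. SYP, listed below among genes bound by REST, held neither block. Words for AP-1, CRE, TATA box, YY1 and E2F sites were also searched and were in none of the 4 windows. These are matches of letters and not measured sites. Only 36 of the 50 members (72.0%) had a window in the table, below the 80% set for a check over the whole set, so no share of members holding a word is given.

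The other neuronal members are in none of the lists described further on. CAMKV, a kinase-like protein of dendritic spines, was at 0.365 and 0.396 CPM in DMSO and at 3.73 and 4.31 CPM in ACBI1. CNIH2, an auxiliary subunit of AMPA-type glutamate receptors, was at 0.118 and 0.273 CPM against 1.58 and 2.1 CPM. CSPG5, a neural proteoglycan, was at 0.423 and 0.478 CPM against 2.55 and 3.62 CPM. Each of these ended at a low level in ACBI1. ADAM11, a catalytically inactive metalloprotease relative of the nervous system, was at 3.36 and 2.29 CPM in DMSO and at 29.3 and 20.7 CPM in ACBI1, a log2 change of 3.05 (SE 0.31). PLPPR3, a membrane protein of growing axons, was at 1.68 and 1.41 CPM against 15.5 and 12.9 CPM, a log2 change of 3.11 (SE 0.27). KCTD12, an auxiliary subunit of GABA-B receptors, was at 5.69 and 3.95 CPM against 38.5 and 36.2 CPM, a log2 change of 2.86 (SE 0.25). These 3 were already detected in DMSO and were among the members with the highest ACBI1 values.

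TRIM9, a ubiquitin ligase of neurons, was at 0.788 and 0.505 CPM in DMSO and at 5.76 and 4.12 CPM in ACBI1. ARHGAP44, a GTPase activating protein of dendritic spines, was at 0.400 and 0.573 CPM against 5.12 and 4.76 CPM. RUNDC3B was at 0.129 and 0.669 CPM against 3.73 and 6.78 CPM. RUNDC3B was the least even of the group: its DMSO libraries lay further apart than its ACBI1 libraries, and its log2 change of 3.66 (SE 0.76) was 2.91 without DMSO replicate 1 and 5.22 without DMSO replicate 2. For the 12 genes as a group, mean ACBI1 levels ran from 1.84 to 37.3 CPM and log2 changes from 2.69 to 5.28. The neuron markers STMN2 and RBFOX3 stayed at or near 0 in all 4 libraries, as given above. The other neuron markers did not: SYT1 was at 178 and 107 CPM in DMSO and at 90.5 and 74.0 CPM in ACBI1. SNAP25 and TUBB3 lay between 0.917 and 2.91 CPM in all 4 libraries.

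A further 3 members act in transport along microtubules. KIF5C, a heavy chain of kinesin-1 found mainly in neurons, was at 0.647 and 0.560 CPM in DMSO and at 6.10 and 3.48 CPM in ACBI1. KIF17, a dendritic kinesin, was at 0.129 and 0.328 CPM against 2.90 and 2.05 CPM. TUBB4A, a beta tubulin of the brain, was at 0.282 and 0.287 CPM against 3.05 and 1.59 CPM. In all 3 ACBI1 replicate 1 was the higher of the treated libraries, and the log2 changes ran from 2.89 to 3.36 (KIF17, 4.13 without DMSO replicate 2).

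Channels and transporters made up 5 members. KCNJ11, the pore subunit Kir6.2 of ATP-sensitive potassium channels, was at 0.306 and 0.382 CPM in DMSO and at 7.31 and 6.98 CPM in ACBI1, a log2 change of 4.29 (SE 0.34). ABCC8, whose product is the partner subunit of Kir6.2 in beta cells and neurons, had 0 and 1 counts in DMSO and 0 in both ACBI1 libraries. Kir6.2 transcript thus appeared without that of this partner. SLC30A4, a zinc efflux transporter, was at 1.91 and 4.45 CPM in DMSO and at 22.5 and 27.8 CPM in ACBI1, and SLC30A3, the zinc transporter of synaptic vesicles, was at 0.141 and 0.137 CPM against 2.81 and 1.07 CPM. SLC2A4, the insulin-responsive glucose transporter GLUT4, was at 0.153 and 0.300 CPM in DMSO and at 2.34 and 4.22 CPM in ACBI1. TMC6 was at 2.22 and 2.74 CPM against 18.4 and 15.4 CPM. The lower ACBI1 library was replicate 2 for KCNJ11, SLC30A3 and TMC6 and replicate 1 for SLC30A4 and SLC2A4.

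Signalling proteins, receptors and ligands were the largest class by number, with 13 members. SH2D5, an SH2-domain adaptor found mainly in the brain, was at 1.00 and 0.737 CPM in DMSO and at 22.7 and 15.8 CPM in ACBI1, a log2 change of 4.37 (SE 0.33). MATK, a kinase that phosphorylates the inhibitory tail of SRC-family kinases and is known from megakaryocytes and brain, was at 2.09 and 1.80 CPM against 14.3 and 17 CPM. CD247, the zeta chain of the T cell receptor complex, was at 0.235 and 0.218 CPM against 2.93 and 2.61 CPM. The rule itself requires the gap between the groups in each of these. CD3D, CD3E and CD3G, the other chains of that complex, had no count in any library, where 3 counts would be 0.0349 to 0.0467 CPM.

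KREMEN2, a receptor that binds DKK1 and curbs Wnt signalling, was at 0.118 and 0.178 CPM in DMSO and at 2.67 and 4.96 CPM in ACBI1, a log2 change of 4.61 (SE 0.52). NKD1, a feedback inhibitor of Wnt signalling, was at 0.200 and 0.123 CPM against 2.65 and 1.91 CPM. The pair of Wnt inhibitors was thus near silent in DMSO, and the rule requires the gap to both ACBI1 libraries. MEGF11, a cell surface protein with EGF-like repeats, was at 0.223 and 0.300 CPM against 9.32 and 5.15 CPM, a log2 change of 4.70 (SE 0.45). IGF2, the insulin-like growth factor, was at 0.329 and 0.778 CPM against 11 and 4.53 CPM, a log2 change of 3.73 (SE 0.61) that was 2.98 without ACBI1 replicate 1 and 4.44 without DMSO replicate 2. IGF2 was among the most uneven members, and other gene models cover 75% of its exonic length, so how reads were shared between models bears on its value.

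ENHO, which encodes the peptide adropin, had the largest ratio in the set: it had 4 and 1 counts in DMSO and 250 and 123 counts in ACBI1, or 0.0470 and 0.0137 CPM against 2.91 and 1.91 CPM. The size of that ratio rests on 5 DMSO counts. ADRA2C, the alpha-2C adrenergic receptor, was at 0.106 and 0.109 CPM in DMSO and at 1.08 and 1.21 CPM in ACBI1. GNG4, a G protein gamma subunit, was at 0.0823 and 0.137 CPM against 2.13 and 1.60 CPM. Both ended at low levels, as did RASGEF1C, FGD3 and SBK1, whose ACBI1 values lay between 1.14 and 2.15 CPM.

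Transcription and chromatin factors were 7 members. E2F2, a cell cycle activator of the E2F family, was at 4.59 and 4.48 CPM in DMSO and at 40.3 and 42.5 CPM in ACBI1, a log2 change of 3.10 (SE 0.18). It had the highest ACBI1 mean of the set, 41.4 ± 1.53 CPM (SD, n = 2) against 4.53 ± 0.0762 CPM in DMSO, and hardly differed between replicates. MYB, the regulator of blood progenitors, was at 0.459 and 0.164 CPM in DMSO and at 4.58 and 2.88 CPM in ACBI1. KLF1, the erythroid Krueppel-like factor, was at 0.0470 and 0.0956 CPM against 1.92 and 1.28 CPM. The developmental homeobox factors PITX3, ONECUT1 and LHX6 and the PHD finger gene PHF21B ended between 1.12 and 3.34 CPM in the ACBI1 libraries. LHX6 had 22 and 3 counts in DMSO, and its log2 change of 4.03 (SE 0.76) was 5.92 without DMSO replicate 1 and 3.26 without DMSO replicate 2. The group held its most and its least abundant genes far apart, with ACBI1 means from 1.47 to 41.4 CPM.

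Germ cell genes were 3 members. MEIOC, which encodes a partner of YTHDC2 needed for progress through meiotic prophase, was at 1.46 and 1.60 CPM in DMSO and at 22.2 and 13.2 CPM in ACBI1, a log2 change of 3.44 (SE 0.33). TEX15, a testis protein needed for meiotic recombination and transposon silencing, was at 1.62 and 2.01 CPM against 12.2 and 13.4 CPM, a log2 change of 2.73 (SE 0.27). YBX2, an RNA-binding Y-box protein of germ cells, was at 0.0235 and 0.0683 CPM against 2.14 and 1.70 CPM, from 2 and 5 counts in DMSO. All 3 stood clear of DMSO in both treated libraries, as the rule requires. Defining germ cell genes were at or near 0: DDX4 had a single count over all 4 libraries and DAZL had 2. Other gene models cover 32.7% of the exonic length of MEIOC, among them CCDC43.

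The 3 noncoding members each lie beside or within another gene. MIR137HG, the host transcript of the neuronal microRNA miR-137, was at 0.459 and 0.519 CPM in DMSO and at 8.17 and 9.63 CPM in ACBI1, a log2 change of 4.10 (SE 0.32). KCNQ5-DT, which is read divergently from the potassium channel gene KCNQ5, was at 0.470 and 0.587 CPM against 3.74 and 10.3 CPM, and its log2 change of 3.65 (SE 0.57) was 2.71 without ACBI1 replicate 2. ENSG00000259881, antisense to CBFA2T3, was at 0.0470 and 0.109 CPM against 1.66 and 2.27 CPM. KCNQ5-DT was thus the member whose ACBI1 libraries were furthest from each other. The remaining 4 members, HBQ1 (theta globin), OTULINL, EFCAB10 and MFAP3L, ended at mean levels of 1.27 to 4.5 CPM in ACBI1.

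**Figure D2:**
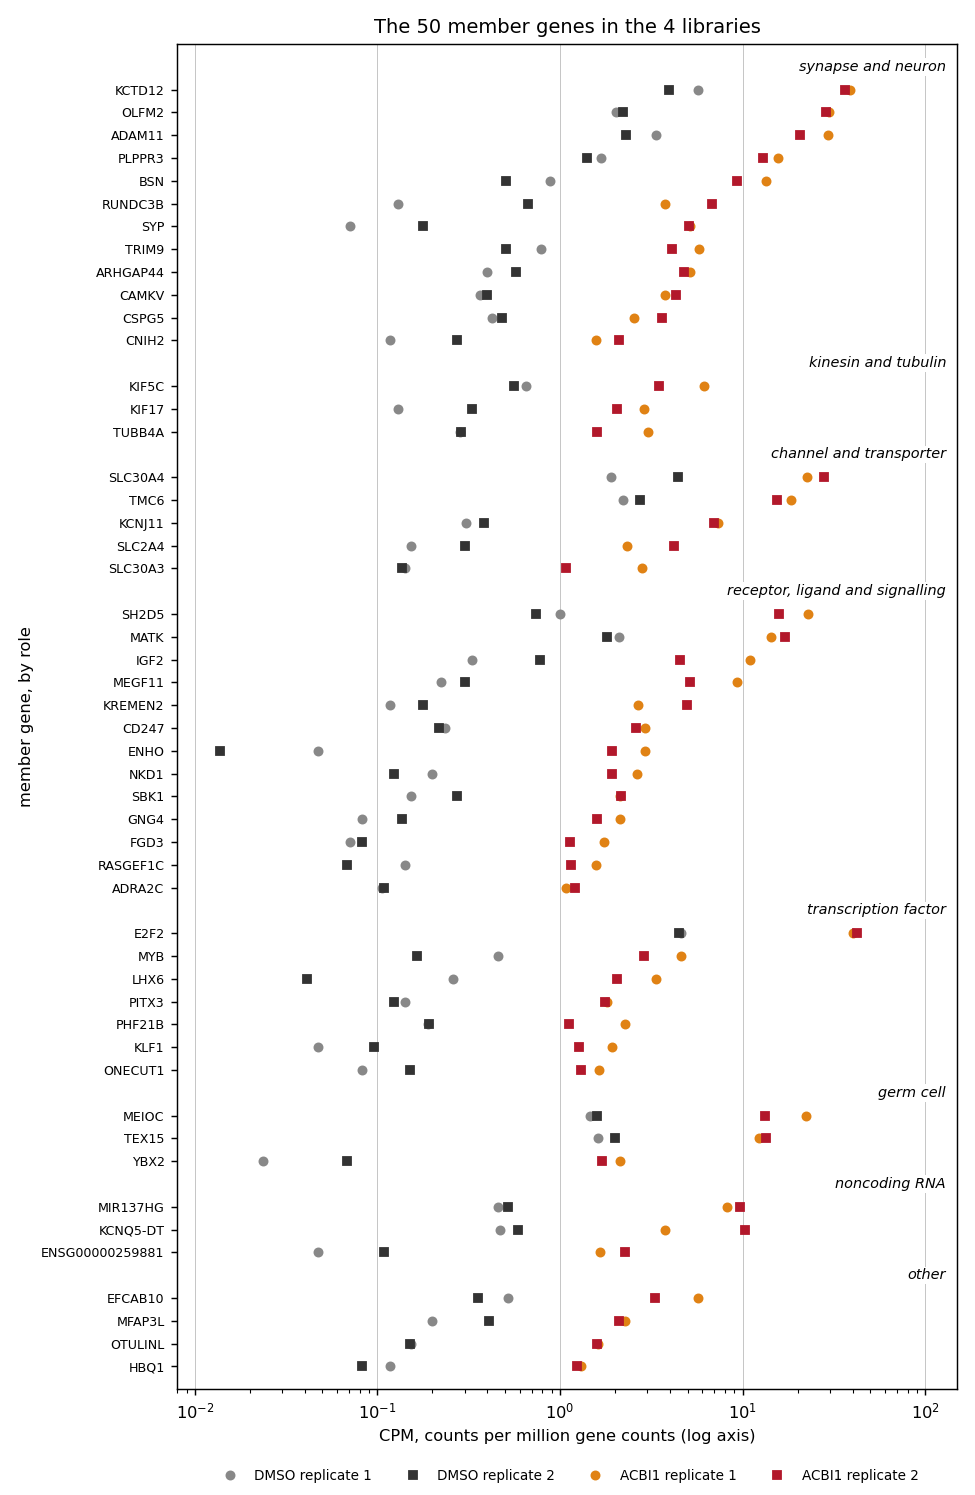
Each line is a member, grouped by role, with its CPM in the 4 libraries on a log axis; grey and black symbols are the DMSO replicates and orange and red symbols the ACBI1 replicates. No member has overlapping groups, which the rule fixes; the final levels run from 1.07 CPM for SLC30A3 to 42.5 CPM for E2F2.

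Per kilobase of exon, which allows levels to be compared between genes, the order changed. The mean ACBI1 level was 11.7 CPM per kilobase for OLFM2, 7.58 for E2F2, 6.0 for KCTD12, 5.24 for ADAM11, 5.20 for PLPPR3 and 4.35 for SH2D5. OLFM2 thus stood first on this scale, ahead of E2F2, while the long BSN transcript was at 0.702 CPM per kilobase and SYP at 0.975. The short ENHO transcript, at 2.23 CPM per kilobase, was level with KCNJ11 at 2.23 and close to MEIOC at 2.05.

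The members were spread over 19 chromosomes, and 47 of the 50 were protein-coding. In GENCODE release 29 (GRCh38), BSN lies at chr3:49554489-49671545 (plus strand), OLFM2 at chr19:9853718-9936552 (minus), MEIOC at chr17:44656404-44690308 (plus) and SH2D5 at chr1:20719732-20732837 (minus). There were 4 pairs of members within 500 kb of each other. SH2D5 and KIF17 are adjacent on the same strand with 1714 bases between them, and YBX2 and SLC2A4 converge with their ends overlapping by 6 bases. ADAM11 lies 68722 bases beyond MEIOC on the same strand, and BSN and CAMKV are 186442 bases apart with 14 genes between them. Other gene models cover more than 10% of the exonic length of 9 members: IGF2, MEIOC, EFCAB10, ENHO, TMC6, ENSG00000259881, TUBB4A, KREMEN2 and CNIH2. Reads at the shared end of YBX2 and SLC2A4 cannot be assigned with certainty, since the strand setting of the counting is not given in the sources used here.

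The protein-coding members had transcripts richer in G and C than tested genes as a whole. The GC content of the longest transcript had a median of 58.6% (quartiles 51.0% and 62.7%) over the 47 members, against 48.4% over 13748 tested protein-coding genes. The 1089 other genes called higher had a median of 50.1% and the 1731 called lower 51.2%, so the members also lay above the rest of the genes that rose. When tested genes were divided by GC content into 4 bins of 3437, 30 members were in the top bin and 7, 3 and 7 in the bins below, from the lowest up. In that top bin 10.4% of genes were called higher and the median log2 change was -0.04, beside 6.98% and 0.03 in the bottom bin. Transcript length did not set the members apart, with medians of 3672 and 3684 bases. These comparisons were made without a test, and what part GC content has in the members' values was not tested.

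Most tested genes in lists of related pathways, gene families and other tissues were not called in either direction. Some of these lists hold no member, and 44 of the members are in no list. The same held over all tested genes, of which 17.4% were called. Over 11 lists that hold 6 of the members, 19 of the 169 tested genes outside the set rose (11.2%) and 13 fell (7.69%), with a median log2 change of 0.11, beside 6.75% and 10.6% and a median of 0.01 over all tested genes. Most of those 32 calls were lost in at least 1 of the fits with a library left out. Calls over the whole table also became fewer without either ACBI1 library.

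Among presynaptic genes, 32 were tested besides BSN and SYP; 3 rose, 3 fell and 26 were not called, with a median of 0.09. PPFIA3, a liprin of the active zone, was at 3.90 and 4.82 CPM in DMSO and at 15.5 and 16.6 CPM in ACBI1 (log2 change 1.79, SE 0.23, adjusted p = 0.0077). RIMS3, an active zone protein, was at 1.71 and 1.88 CPM against 6.64 and 6.27 CPM (1.76, SE 0.28, adjusted p = 0.0129). UNC13A, which primes vesicles for release, moved the other way, from 1.14 and 1.13 CPM to 0.163 and 0.249 CPM (-2.56, SE 0.43, adjusted p = 0.0152, but 0.0715 without ACBI1 replicate 1). RIMS1 (2.89, adjusted p = 0.0342) was not called by DESeq2 (0.104) or with any 1 library left out (0.120 to 0.195). STX1A and SV2A also fell, SV2A not in every fit with a library left out. The active zone scaffold and vesicle genes around Bassoon and synaptophysin thus went in both directions.

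Among postsynaptic genes, none of which is a member, 4 of 25 rose and 5 fell, with a median of 0.11. The 5 that fell were GRIK2, DLGAP4, HOMER3, DLG3 and GRIN2D, all but HOMER3 called in every fit with a library left out. GRIN1, the obligate subunit of NMDA receptors, was at 0.823 and 0.778 CPM in DMSO and at 3.41 and 3.39 CPM in ACBI1 (log2 change 2.0, SE 0.32, adjusted p = 0.0134). GRIK2, a kainate receptor subunit, fell (-1.95, SE 0.35, adjusted p = 0.0184), as did the scaffold genes DLGAP4 (-1.65, SE 0.17, adjusted p = 0.00424) and HOMER3 (-1.53, SE 0.28, adjusted p = 0.0189, but 0.0825 without ACBI1 replicate 1). The other genes that rose were the scaffolds HOMER1, HOMER2 and SHANK3, each of which lost its call without ACBI1 replicate 2 (adjusted p = 0.0544, 0.0703 and 0.0959), HOMER1 and SHANK3 also without ACBI1 replicate 1 and SHANK3 without DMSO replicate 2.

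Of neuronal genes bound by REST, 22 were tested besides SYP; 4 rose and 2 fell, with a median of 0.31. MAPK8IP2, a JNK scaffold, rose (log2 change 2.31, SE 0.46, adjusted p = 0.0232, 0.0992 without ACBI1 replicate 2), as did GAP43 of growth cones (1.94, SE 0.50, adjusted p = 0.0466, not called with any 1 library left out or by limma-voom). SCG2, a secretory granule protein, fell from 8.55 and 29.2 CPM to 0.0814 and 0.124 CPM (-7.60, SE 0.78, adjusted p = 0.00431; -6.49 without DMSO replicate 2 and -8.22 without DMSO replicate 1), and UNC13A, in this list too, fell as given above. REST itself was at 56.2 and 59.6 CPM in DMSO and at 56.7 and 59.8 CPM in ACBI1, with no difference called (log2 change -0.08, adjusted p = 0.754). REST protein and its binding were not measured, and what part REST has in the change of SYP was not tested.

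Of meiosis genes, 19 were tested besides MEIOC and TEX15; 2 rose and the median was 0.57. None fell by edgeR, with 2 lower at an unadjusted p under 0.05, while limma-voom called 0 lower and DESeq2 called 2. Over all 19159 tested genes, 6490 had an unadjusted p under 0.05 by edgeR in either direction. That share is to be set beside such counts here and in the lists below. STAG3, the meiotic cohesin subunit, was at 0.176 and 0.123 CPM in DMSO and at 1.49 and 0.887 CPM in ACBI1 (log2 change 2.88, SE 0.49, adjusted p = 0.0155, 0.0655 without ACBI1 replicate 1). SPDYA, a CDK2 activator at telomeres, was at 0.153 and 0.410 CPM against 1.14 and 1.45 CPM (2.13, SE 0.54, adjusted p = 0.0454; 2.96 without DMSO replicate 2, and not called without DMSO replicate 1 or without either ACBI1 library). YTHDC2, the partner of MEIOC, was at 48.4 and 47.6 CPM against 77.9 and 70.4 CPM (0.54, SE 0.15, adjusted p = 0.0558) and was just short of the call, which DESeq2 made (0.0352). RBM46, the third protein of that complex, was not called (1.66, SE 0.60, adjusted p = 0.11). The other 21 genes of the list, among them STRA8, SYCP1, SYCP3 and SPO11, had at most 12 counts in any library and were not tested.

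The remaining lists held few called genes. In the germ cell and piRNA list, CPEB1 rose (log2 change 2.28, SE 0.46, adjusted p = 0.0253, 0.0869 without ACBI1 replicate 1) and MOV10L1 fell (-4.22, SE 1.05, adjusted p = 0.0432), the latter between -2.62 and -6.28 as single libraries were left out and not called by limma-voom (0.0648). Of 11 cancer-testis genes ATAD2 rose (0.94, SE 0.17, adjusted p = 0.0179) and MAGEA10 fell (-0.92, SE 0.20, adjusted p = 0.0302), neither of them called without ACBI1 replicate 1 or without replicate 2. None of the 6 olfactomedin-family genes tested besides OLFM2 was called by edgeR, DESeq2 or limma-voom, and at an unadjusted p under 0.05 there was 1 on each side; their median was -0.55. Among 20 SH2 adaptor genes tested besides SH2D5, GRB14, an inhibitor of insulin receptor signalling, rose from 3.45 and 2.98 CPM to 19.8 and 15.3 CPM (2.36, SE 0.26, adjusted p = 0.00479), and SH2B3 fell (-0.89, SE 0.23, adjusted p = 0.0467, not called without DMSO replicate 2 or ACBI1 replicate 1).

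Lists of other tissues were tested in the same way. Of 10 blood genes, IKZF3 (log2 change 3.32, SE 0.61, adjusted p = 0.0192; 2.55 and 0.0564 without ACBI1 replicate 1) and CORO1A (2.18, SE 0.51, adjusted p = 0.0356; 0.163 without ACBI1 replicate 2) rose. Of 9 muscle genes, ACTN2 rose (adjusted p = 0.0275; 0.0528 without DMSO replicate 1), from 1 count over both DMSO libraries to 39 over both ACBI1 libraries, a ratio of 41.1 with a 95% exact interval of 6.95 to 1663. Of 6 liver and gut genes, SERPINA1 fell (-5.63, SE 0.60, adjusted p = 0.00461) and none rose by edgeR, with 1 higher at an unadjusted p under 0.05, while DESeq2 called 1 higher and limma-voom 0. Low-level rises were thus also found in the blood and muscle lists. That the blood list holds no member was set by how it was drawn up, since it leaves out MYB, KLF1 and CD247.

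**Figure D3:**
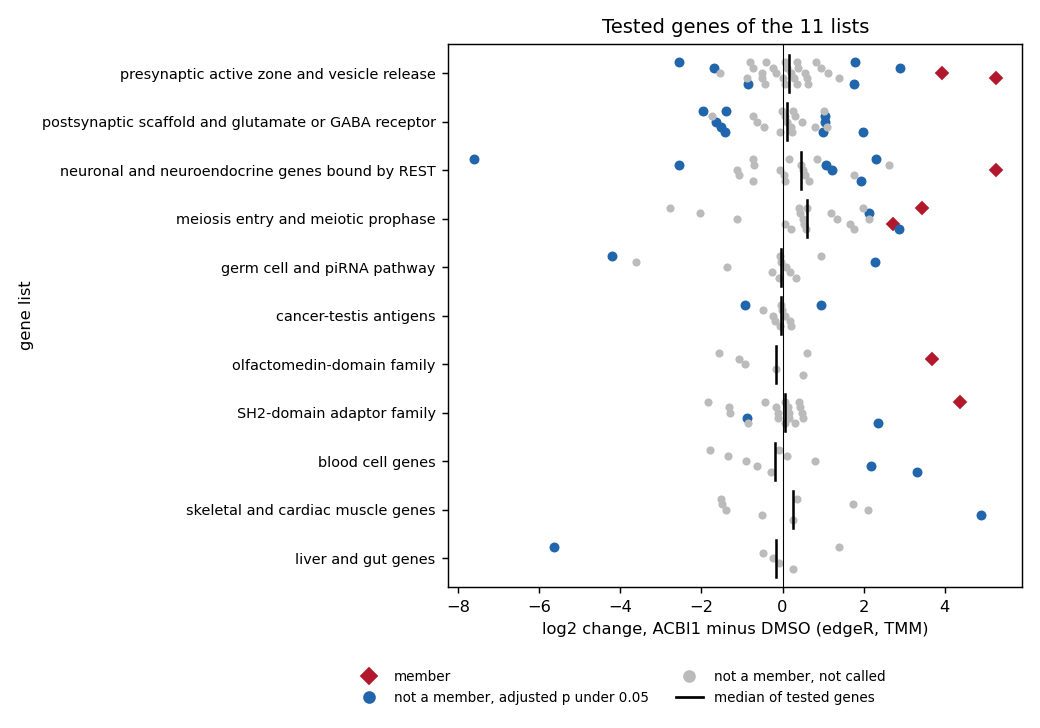
Each point is a tested gene, with its log2 change (ACBI1 minus DMSO) on the x axis and its list on the y axis; red diamonds are members, blue points other genes called at an adjusted p under 0.05, grey points genes not called and black bars the median of a list's tested genes, members included. The medians lie near 0, with the highest in the meiosis list, and called genes lie on both sides of 0 in 6 of the 11 lists.

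Close relatives of the members were compared next, since relatives share function but were not chosen by the rule. The 24 gene families, drawn up after the members were known, hold 25 members and 82 other tested genes, of which 11 rose (13.4%), 17 fell (20.7%) and 54 were not called, with a median log2 change of -0.04, beside 6.75% higher and 10.6% lower over all tested genes. In 6 families relatives rose and none fell, in 6 they fell and none rose, in 3 both occurred, and in 7 none was called. Those 7 hold 22 tested relatives, of which 6 had an unadjusted p under 0.05 by edgeR, beside 6490 of all 19159 tested genes. DESeq2 called 2 of the 22 and limma-voom 1. Many of the 11 rises and 17 falls lost their call in at least 1 fit with a library left out. Calls over the whole table also became fewer without either ACBI1 library.

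Relatives of several transcription factors and Wnt inhibitors in the set rose. E2F1 was at 47.1 and 36.7 CPM in DMSO and at 155 and 184 CPM in ACBI1 (log2 change 1.93, SE 0.21, adjusted p = 0.00485). E2F8 rose too, from 3.79 and 4.30 CPM to 11.1 and 13.6 CPM (1.52, SE 0.25, adjusted p = 0.0145, with a log2 change of 1.34 without ACBI1 replicate 2). E2F7 fell (-1.76, SE 0.20, adjusted p = 0.00519). MYBL1 (1.59, SE 0.18, adjusted p = 0.00575) and MYBL2 (1.55, SE 0.19, adjusted p = 0.0070) both rose beside MYB. NKD2, the paralogue of NKD1, was at 5.23 and 4.14 CPM against 43.9 and 24.9 CPM (2.78, SE 0.32, adjusted p = 0.0058), and KREMEN1 rose beside KREMEN2 (1.49, SE 0.25, adjusted p = 0.0155, 0.0677 without ACBI1 replicate 1). NKD2 lay well above its member paralogue in level and changed less. ONECUT2 rose beside ONECUT1 (1.53, SE 0.22, adjusted p = 0.0104), and LHX2 rose from 2 and 2 counts to 126 and 28 counts (5.06, SE 0.85, adjusted p = 0.0149; 3.95 and 0.0538 without ACBI1 replicate 1), whereas LHX1 fell (-2.29, SE 0.31, adjusted p = 0.00833).

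In other families, called relatives mostly fell. Among Krueppel-like factors, KLF4 (log2 change -1.89, SE 0.32, adjusted p = 0.0153), KLF5 (-1.39, adjusted p = 0.0075), KLF9 (-1.16, adjusted p = 0.00909) and KLF10 (-0.91, adjusted p = 0.0217) fell, KLF9 and KLF10 not in every fit with a library left out, and KLF16 rose (1.54, SE 0.19, adjusted p = 0.00673), while KLF1 went from near 0 to its low level. The glucose transporters SLC2A1 (-1.70, SE 0.22, adjusted p = 0.00727), SLC2A12 (-2.83, SE 0.35, adjusted p = 0.00665) and SLC2A6 (-2.21, SE 0.37, adjusted p = 0.0147; -2.89 without ACBI1 replicate 2) fell while SLC2A4 was switched on. SLC2A1 was at 157 and 175 CPM in DMSO and at 64.5 and 44.3 CPM in ACBI1, so the ubiquitous transporter stayed far more abundant than SLC2A4. CNIH3, the relative of CNIH2, fell (-2.26, SE 0.30, adjusted p = 0.00823), and among the MEGF genes MEGF10 (-2.67, between -1.51 and -3.30 as DMSO libraries were left out) and MEGF9 (-1.46) fell beside MEGF11, neither of them called in every fit with a library left out. Among G protein gamma subunits GNG2 (-2.75) and GNG11 (-1.59) fell beside GNG4; both lost the call without ACBI1 replicate 1. Without DMSO replicate 2, GNG2 was at -1.78 and still called, and GNG11 was at -0.91 and not called (adjusted p = 0.0564), nor was GNG11 called by limma-voom (0.0594).

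**Figure D4:**
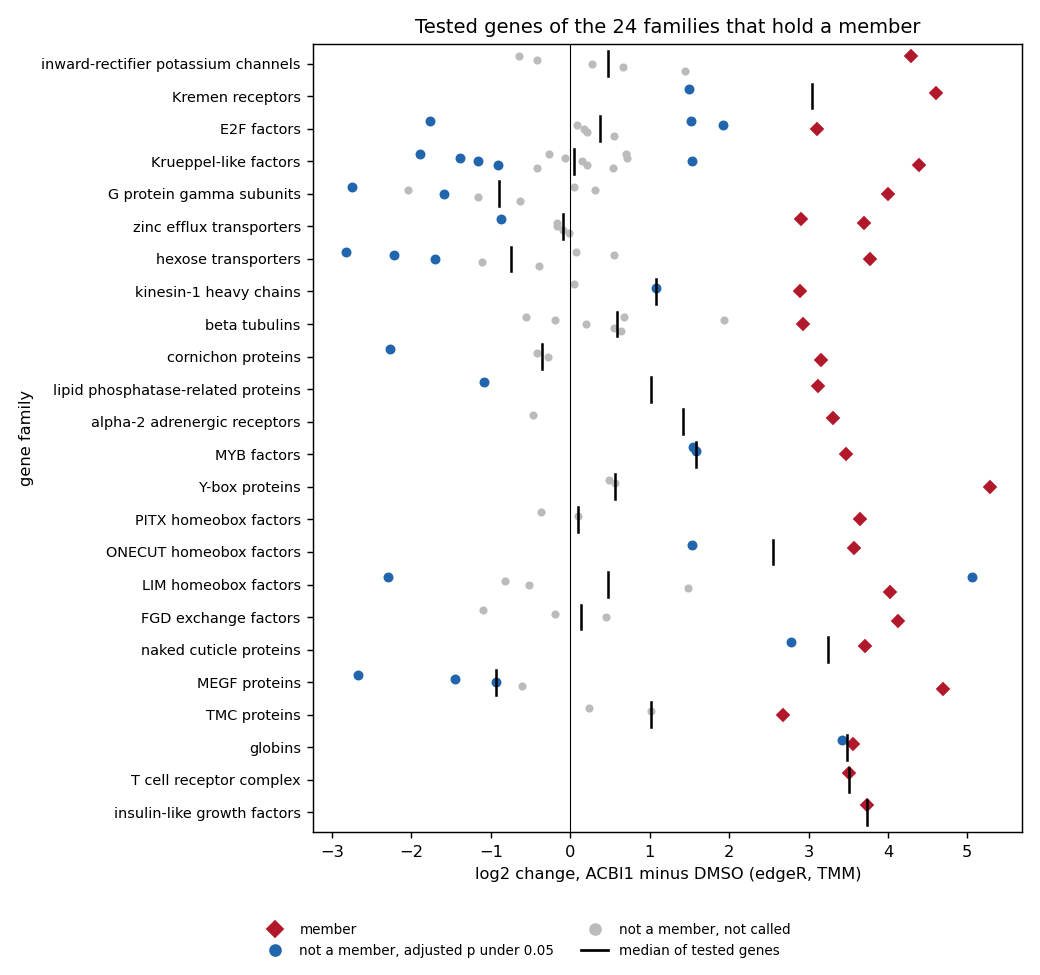
Each point is a tested gene, with its log2 change (ACBI1 minus DMSO) on the x axis and its family on the y axis; red diamonds are members, blue points relatives called at an adjusted p under 0.05, grey points relatives not called and black bars the median of a family's tested genes, members included. The called relatives of MYB, NKD1, KREMEN2 and ONECUT1 lie to the right of 0, and the called hexose transporters and MEGF genes to the left.

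The genes next to the members in the genome were examined last, because they share a chromosomal neighbourhood and the rule did not choose them. Neighbours were the annotated genes just before and just after a member in order of start position, which are not always the closest by distance. Of these, 36 were tested and are not members. Among them 5 rose (13.9%) and 4 fell (11.1%), with a median log2 change of 0.19, beside 6.75% and 10.6% over all tested genes. When only tested genes were put in this order (the nearest tested gene by start position), 8 of 96 rose (8.33%) and 9 fell (9.38%), with a median of 0.14. The share that rose was thus nearer to the share in the table under this second order, which brought in both closer and more distant genes. On the left of ENHO the gap became 50 bases (DNAI1) instead of 42134 (RN7SKP24). On the right of KCNJ11 it became 398716 bases (SERGEF) instead of 3166 (ABCC8).

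Among the neighbours that rose, PKMYT1, a cell cycle kinase that overlaps KREMEN2 on the opposite strand, was at 19.3 and 9.34 CPM in DMSO and at 47.9 and 52.4 CPM in ACBI1 (log2 change 1.72, SE 0.35, adjusted p = 0.0256; 2.36 without DMSO replicate 1). KCNQ5, whose start lies 281 bases from that of KCNQ5-DT, was at 48.5 and 35.9 CPM against 71.5 and 88.6 CPM (0.84, SE 0.22, adjusted p = 0.0495) and was not called by limma-voom (0.0503), without DMSO replicate 2 or without either ACBI1 library. In ACBI1 replicate 2, where KCNQ5-DT was highest, KCNQ5 was highest too. TRIO, next to OTULINL, was at 405 and 446 CPM against 853 and 900 CPM (0.96, SE 0.17, adjusted p = 0.0178). ENSG00000260196, an antisense gene beside KCNJ11, rose by less than its neighbour (1.36, SE 0.31, adjusted p = 0.0344), and neither it nor TRIO was called without ACBI1 replicate 1 or without replicate 2. HBA1, next to HBQ1, had 2 and 1 counts in DMSO and 26 and 10 in ACBI1 (adjusted p = 0.0309, not called by DESeq2 at 0.0633 or without DMSO replicate 1, DMSO replicate 2 or ACBI1 replicate 2), a ratio of 12.6 with a 95% exact interval of 3.99 to 64.1.

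The neighbours that fell included both genes overlapping SLC30A4. SLC30A4-AS1 was at 6.53 and 5.87 CPM in DMSO and at 0.0581 and 0.0156 CPM in ACBI1 (log2 change -7.34, SE 0.54, adjusted p = 0.00228; -8.55 without ACBI1 replicate 1). HMGN2P46, a transcribed pseudogene, was at 5.93 and 6.39 CPM against 0.174 and 0.187 CPM (-5.17, SE 0.35, adjusted p = 0.00193). Both are annotated on the strand opposite to SLC30A4, which went up from 1.91 and 4.45 CPM to 22.5 and 27.8 CPM in the same libraries, so counts assigned to the 2 strands of this locus changed in opposite directions. The strand setting of the counting is not given in the sources used here, and reads of overlapping genes then cannot be told apart with certainty. The other neighbours that fell were CLDN7, beside SLC2A4 (-1.85, SE 0.39, adjusted p = 0.0271), and DDOST, beside KIF17 (-0.90, SE 0.18, adjusted p = 0.0234), neither of them called without ACBI1 replicate 1 or without replicate 2.

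**Figure D5:**
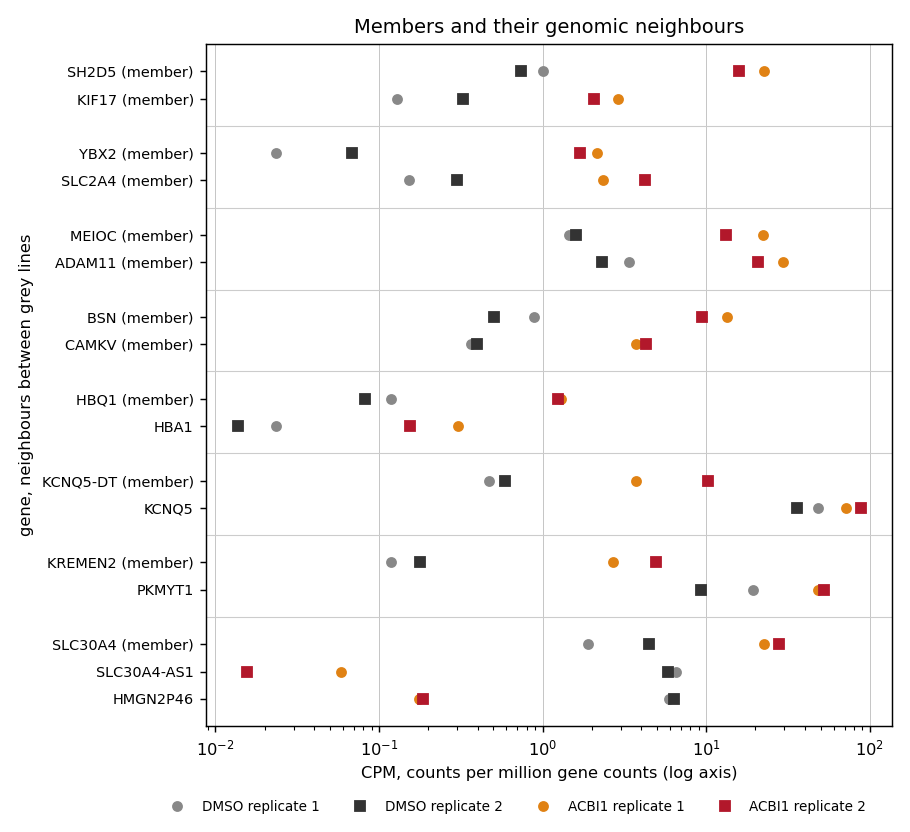
Each line is a gene, with its CPM in the 4 libraries on a log axis; grey and black symbols are the DMSO replicates, orange and red symbols the ACBI1 replicates, and grey lines separate the 4 pairs of members and 4 members shown with a called neighbour. The ACBI1 libraries lie to the right of the DMSO libraries for every gene drawn except SLC30A4-AS1 and HMGN2P46, which lie to the left.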

How the data were processed

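The deposited values are raw counts, not normalized, for 61228 gene symbols plus 5 further lines in each of 4 RNA-seq libraries, per the file headers. Per the submitters' processing notes, the authors used TopHat2 2.1.1, HTSeq 0.11.0 and the build hg38; the annotation, strand setting and overlap mode are not given in the sources used here. The further lines stayed out of all totals, and 84.6% to 86.1% of listed reads were in genes.

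CPM are counts over the sum of gene counts, unscaled. Genes passing filterByExpr (19159) were tested with edgeR 4.0.16 in R 4.3.3 (TMM scaling, glmQLFit, glmQLFTest, treatment alone, two-sided), and called at a Benjamini-Hochberg adjusted p under 0.05; all adjusted p values in the text are from it unless another tool is named. The common biological coefficient of variation was 0.244. An exact permutation test of a single value, 2 libraries against 2, has 0.333 as its smallest p, so none was run. Intervals and floors cover counting error only. Scripts were tested on simulated data.

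The members, lists, families and roles were chosen with earlier results of these data known. Named were the 4 marker genes, the 12 members with the highest ACBI1 mean and the 12 with the largest ratio at a mean of at least 3 CPM. Members in a list, up to 4 called genes per list, genes at the limits of the rule and called neighbours were named as well. Other members, the relatives and further called synaptic genes were named after their values were seen. Gene models came from GENCODE release 29 (GRCh38; 50 members and 18339 tested genes matched by symbol) and promoters from RefSeq (GRCh38.p14; 36 members and 12359 tested genes matched). Alternatives were other scalings and filters, a replicate block, DESeq2 1.42.0, limma-voom (limma 3.58.1), a threshold of 0.01, other limits of the rule and each library left out; the choice of the nearest tested gene and the REST words were added after the data were seen. A result on 1 relative of a member is not reported here.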

Additional observations from a re-analysis of the deposited data

How the results depend on the processing

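The set of 50 genes depended on its limits: it held 155 genes at 3-fold, 18 at 10-fold, 33 at a minimum of 2 CPM and 69 to 112 with 1 library left out (112 without ACBI1 replicate 2, 90 without DMSO replicate 1, 86 without DMSO replicate 2); with TMM or DESeq2 scaling it held 47. All 50 members were called under each scaling and with DESeq2, limma-voom and the replicate block. With a filter at a mean of 5 CPM 12 of 12 tested were called, and 39 at a threshold of 0.01. The rule used the same contrast, so these counts are a description only. Over the whole table, 1294 genes rose and 2037 fell; with no filter these were 2202 and 3316, at 0.01 they were 172 and 611, and with 1 library left out 415 to 1651 and 964 to 2641 (415 and 964 without ACBI1 replicate 1, 525 and 1282 without ACBI1 replicate 2, 858 rises without DMSO replicate 2). With the replicate number as a block they were 3708 and 4201; deviations of same-numbered libraries correlated at 0.542, but the labels do not say that a number pairs samples.

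In the lists, 19 rises and 13 falls outside the set became 36 and 26 with no filter, 50 and 32 with the replicate block, 2 and 5 at 0.01, and 8 to 22 and 8 to 20 with 1 library left out; the rises were 9 with the 5 CPM filter and 33 with DESeq2. Among neighbours, 5 rises and 4 falls became 11 and 7 with no filter, 10 and 7 with the replicate block, 0 and 2 at 0.01, 8 and 9 with the nearest tested gene, and 1 to 7 and 2 to 4 with 1 library left out; falls were 1 with the 5 CPM filter. Scaling by library size alone moved the median of all genes by 0.09, and REST then stood at a log2 change of 0.0082 (adjusted p = 0.975). The cause of these shifts was not tested. No neighbour rose at 0.01 by edgeR, although 5 did at 0.05. The share of members holding a promoter word was not run, because too few members had a window. With 1 library in a group, the lone library is assumed to vary like the others. Low counts in DMSO limit how exactly many ratios are known, first those of ENHO, YBX2 and LHX6, with 3 counts or fewer in a DMSO library. Both DMSO libraries were under 10 counts for ENHO, YBX2, KLF1 (4 and 7), FGD3 (6 and 6), ENSG00000259881 (4 and 8) and ADRA2C (9 and 8). Several other members, among them SYP and GNG4, had 1 DMSO library under 10.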
